A study of Mus musculus with 19 samples.

Results

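Hepatocyte identity transcription factors are the small set of DNA-binding proteins that keep liver cells expressing liver genes. The set examined here was 9 genes chosen by name, Hnf4a, Cebpa, Foxa1, Foxa2, Foxa3, Nr1i2, Nr1i3, Rxra and Onecut1. All 9 were found among the 52110 named entries of the expression table, and all 9 were among the 10577 genes tested. Liver RNA of wild-type mice was sequenced in 19 samples. The mice ate normal chow (NC) or a diet that lacks choline, takes its protein as defined L-amino acids and is high in fat (CDAHFD), which is used to induce steatohepatitis. On each diet they received either a sham treatment or remote limb ischemic conditioning (RIC), that is, cycles of blocked and released blood flow in a limb. The chow groups held 5 samples each (NC sham and NC RIC), CDAHFD sham held 5 and CDAHFD RIC 4. The labels give genotype WT for every sample and name neither age nor feeding state. They call the samples replicates without tying each to a separate animal, so a p-value reflects only sample-to-sample spread, which may be technical.

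HNF4A is an orphan nuclear receptor that binds the regulatory regions of many hepatocyte genes, and liver-enriched factors of this kind also bind each other's promoters. C/EBP alpha, encoded by Cebpa, is a leucine zipper factor of energy metabolism. FOXA1, FOXA2 and FOXA3 are forkhead factors that can bind their sites in closed chromatin. PXR (Nr1i2) and CAR (Nr1i3) sense foreign compounds and bile acids and bind DNA together with the shared partner RXR alpha (Rxra). ONECUT1, also called HNF6, acts in liver and bile duct development and in adult glucose and bile acid metabolism.

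Levels are given as FPKM, fragment counts divided by gene length and by the mapped fragments of the sample, so they can be compared between genes. Differences between groups are in log2(FPKM + 1), and a gene was called where the adjusted p of a limma fit over all tested genes was under 0.05. A fold is a ratio of mean FPKM. Depth was estimated at 16.0 to 26.5 M reads per sample, and the fewest reads estimated behind a value of the 9 genes were 52.1, for Onecut1. All 9 hepatocyte markers in the table were detected in every group, and their summed level was 40430 to 51340 FPKM in NC sham and 32850 to 39100 in CDAHFD sham. Summed macrophage markers (8 genes) went from 40.7 to 53.9 FPKM in NC sham to 403.7 to 588.4 in CDAHFD sham, and stellate cell markers (8 genes) from 6.96 to 11.4 to 54.1 to 140.1. The cholangiocyte list (8 genes) summed to 2.23 to 3.69 FPKM in NC sham and to 10.4 to 30.8 in CDAHFD sham. Endothelial markers (6 genes) summed to 8.69 to 19.7 and 18.9 to 32.2 FPKM, and lymphocyte markers (6 genes) to 0.212 to 1.36 and 2.08 to 5.51. The part of this shift in the differences below was not tested. In bulk liver, fewer hepatocytes and less RNA of a gene per hepatocyte cannot be told apart.

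In chow-fed sham mice Hnf4a was the most abundant of the 9 genes, at 111.5 ± 9.22 FPKM (SD, n = 5). Nr1i3 (73.0 ± 2.18) and Cebpa (72.7 ± 8.42) followed with overlapping ranges, and then Nr1i2 (43.8 ± 2.90), Rxra (22.3 ± 3.02) and Foxa3 (19.5 ± 5.64). Foxa2 (4.48 ± 1.45), Foxa1 (4.01 ± 0.573) and Onecut1 (1.40 ± 1.39) came last. Among the tested genes of that group Hnf4a stood at the 96.4th percentile and Onecut1 at the 22.6th. Neighbours whose ranges over samples overlapped were Nr1i3 and Cebpa, Rxra and Foxa3, Foxa2 and Foxa1, and Foxa1 and Onecut1. In the CDAHFD RIC livers the order at the top was Hnf4a (83.1 ± 13.9), Cebpa (79.7 ± 7.20), Nr1i3 (49.9 ± 6.80) and Nr1i2 (47.5 ± 1.90, n = 4). There the ranges of Hnf4a and Cebpa overlapped, as did those of Nr1i3 and Nr1i2, whereas in NC sham neither pair did. Hnf4a and Cebpa also overlapped in NC RIC and CDAHFD sham, and Nr1i3 and Nr1i2 also in NC RIC. Rxra (35.2 ± 2.13) and Foxa3 (14.2 ± 3.69) were separate in CDAHFD RIC and overlapped in every other group.

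**Figure D1:**
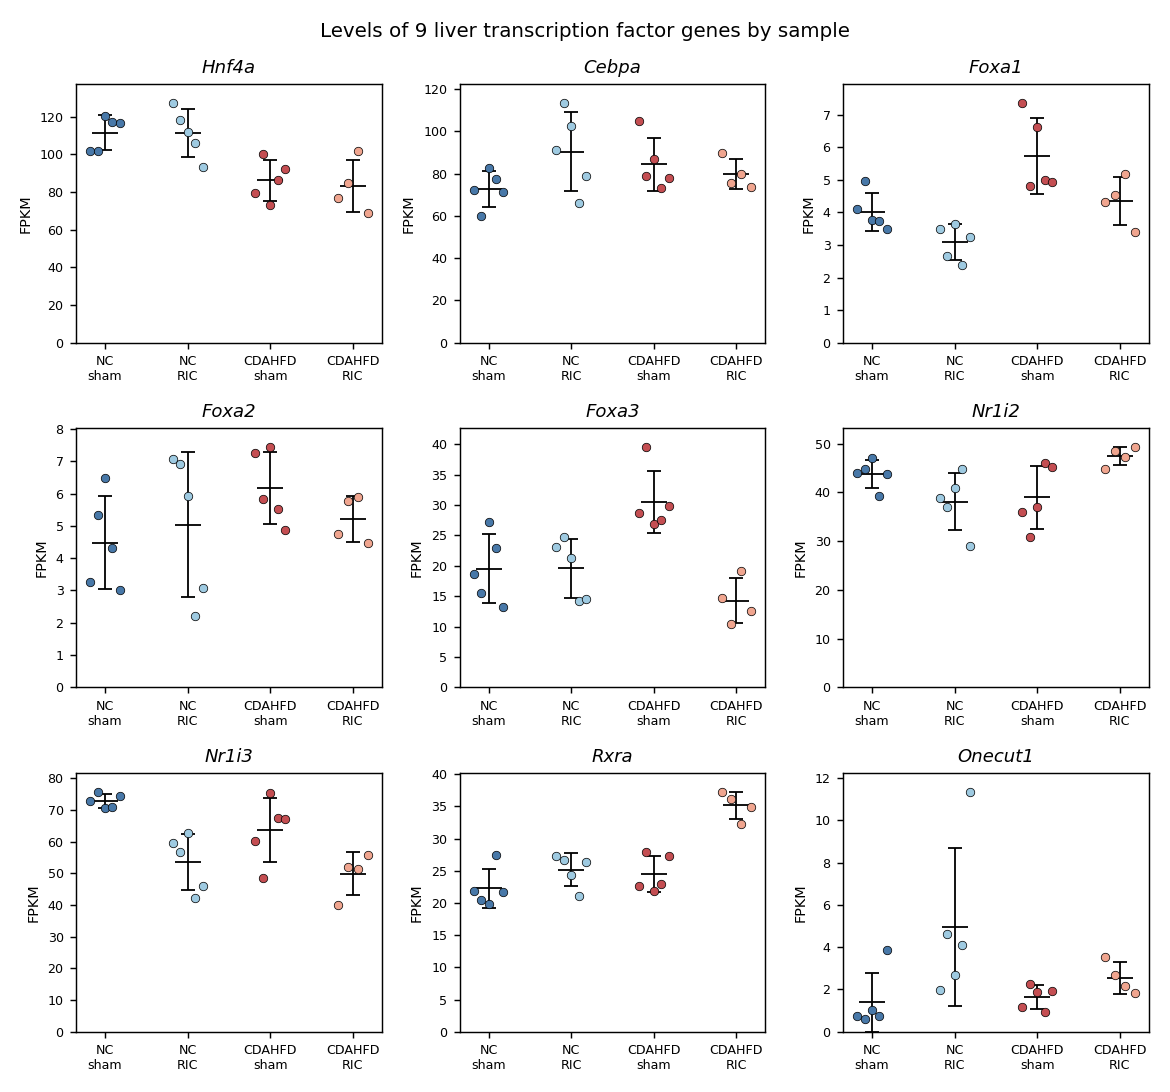
FPKM of each of the 9 genes (vertical axis, from 0) in the 4 groups; points are samples, and the black mark and bars are the mean and SD (n = 5, or 4 for CDAHFD RIC; bars are cut at 0). Hnf4a is lower in both CDAHFD groups, while CDAHFD RIC is the lowest group for Foxa3 (14.2 FPKM) and the highest for Rxra (35.2 FPKM).

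Diet was compared first in sham mice. Of the 9 genes, 2 were called higher on CDAHFD (Foxa1 and Foxa3), 1 was called lower (Hnf4a) and 6 were not called. Among all tested genes 63.9% were called higher and 10.3% lower, and the median gene was higher by 0.45. A higher call is therefore the common outcome in this comparison, and the 2 of 9 lie under that background. The groups did not overlap for 1 of the 9 genes, Hnf4a, against 59.3% of all tested genes. In RIC mice, 3 were called higher on CDAHFD (Foxa1, Nr1i2 and Rxra) and 1 lower (Hnf4a), against backgrounds of 63.6% and 6.68%, with a median of 0.42 over all genes. There the groups did not overlap for 2 of the 9, Nr1i2 and Rxra, against 58% of all genes.

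RIC was then compared with sham on each diet. On CDAHFD, 1 of the 9 genes was called higher (Rxra) and 1 lower (Foxa3), against 8.72% and 18.6% of all tested genes, and the median of all genes was -0.08. These were also the 2 genes whose groups did not overlap, which held for 18.4% of all genes. On chow none of the 9 was called by limma, and the background was 0.321% called higher and 0.86% lower. Groups did not overlap for 1 of the 9, Nr1i3, against 4.75% of all genes. The difference between the RIC effects on the 2 diets was called for 1 gene, Foxa3, which was lower, where 3.13% of all genes were called lower and 3.59% higher. The comparisons share groups with each other, CDAHFD sham serving as the control of RIC and as the treated group of diet, so they are set side by side here and are not independent.

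**Figure D2:**
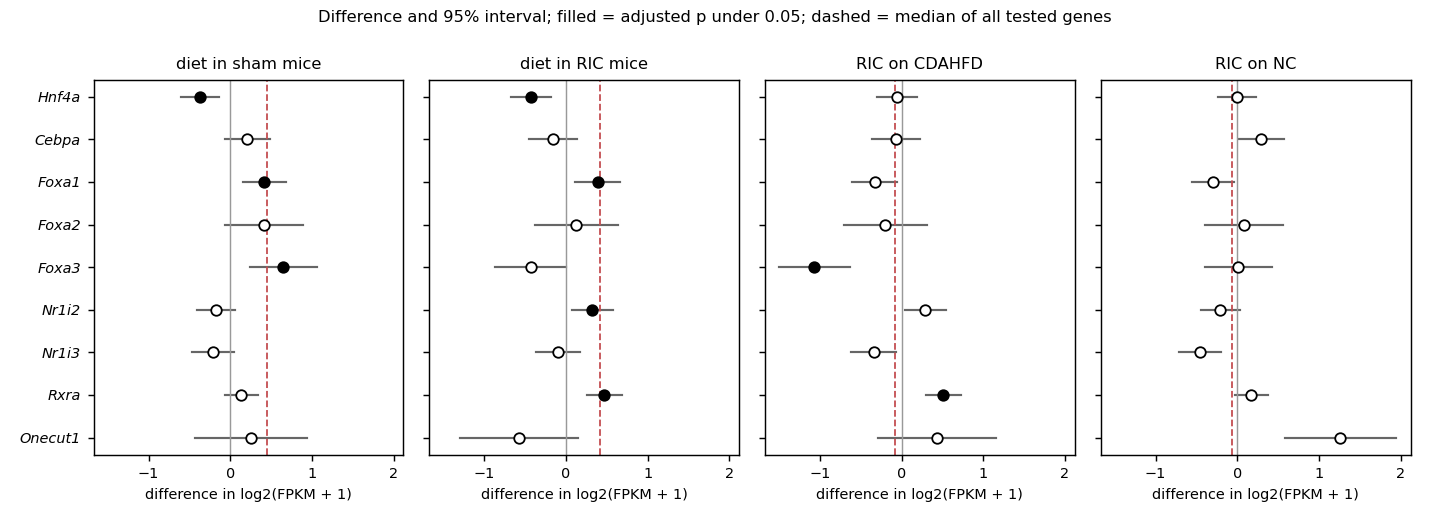
Difference in log2(FPKM + 1) of each gene (points) with its 95% interval (lines) in 4 comparisons; filled points had an adjusted p under 0.05, and the dashed line is the median of all tested genes. Hnf4a lies left of 0 in both diet comparisons (-0.37 and -0.42), and RIC on CDAHFD moves Foxa3 (-1.07) and Rxra (0.51) in opposite directions.

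The direction of a diet difference depends on how samples are scaled, because so many genes were higher on CDAHFD. Scaling by median ratios brought the median of all genes from 0.45 to 0.003 in sham mice and changed the share of calls that were higher from 86.1% to 50.04%, and quantile normalization gave 47.6%. Hnf4a was lower under every alternative tried, and its difference in sham mice ranged from -0.95 to -0.31. By contrast Foxa1 changed sign in sham mice, to -0.06 under median ratios and -0.11 under quantiles, and Rxra went from 0.13 to -0.43 and -0.26. Foxa3 kept a positive difference (0.09 and 0.24) but was no longer called. The comparison of RIC with sham on CDAHFD moved less: the median of all genes stayed within 0.1 of 0, though the share of its calls that were higher rose from 32.0% to 55.8% under median ratios and 50.6% under quantiles. Foxa3 (-0.95 and -1.004) and Rxra (0.61 and 0.62) remained called there.

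**Figure D3:**
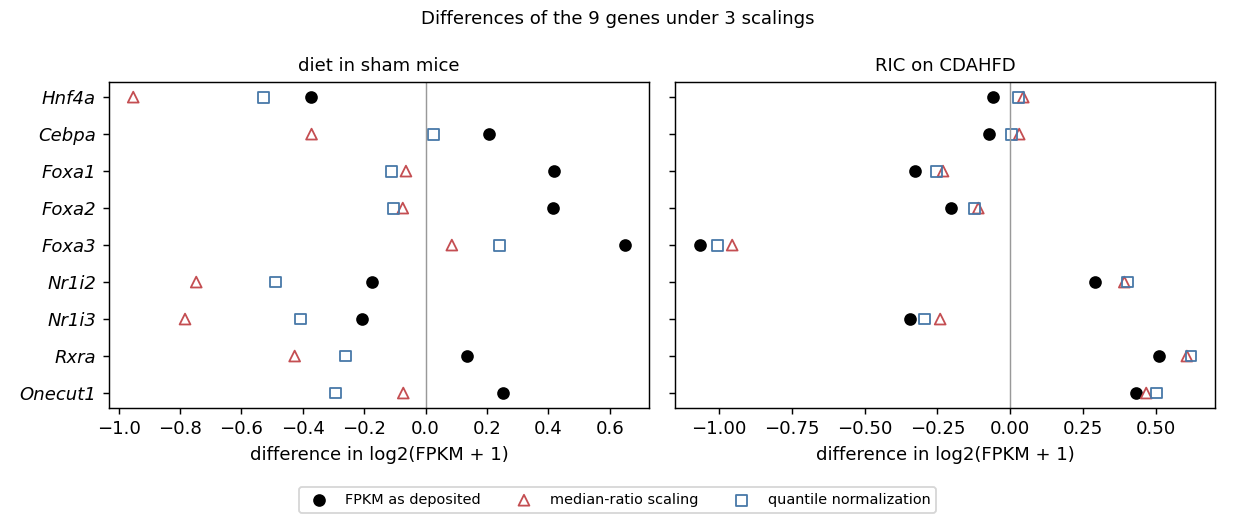
Difference in log2(FPKM + 1) of each gene for diet in sham mice and RIC on CDAHFD, with FPKM as deposited (filled circles), after median-ratio scaling (triangles) and after quantile normalization (squares). On diet Hnf4a is left of 0 under all 3 scalings while Foxa1 and Rxra cross 0, and on RIC Foxa3 and Rxra keep their sides.

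Hnf4a lies on chromosome 2 (163506808 to 163572910, plus strand; GENCODE annotation of the GRCm38 assembly, here and below) and has a pair of annotated starts 40298 bp apart. The start windows of the 4 genes called for diet in sham mice or for RIC are shown because of those calls. They can be read against the binding motifs of the set itself. Each runs from 250 bases before to 50 after a start annotated by RefSeq on GRCm38.p6. The letters searched, on both strands, were ATCAATA for ONECUT (in 2.05% of 32851 windows of this length), TGTTTAC for FOXA (3.65%), AGGTCA for nuclear receptors (16.3%), TTGCNNAA for C/EBP (10.8%) and TATAAA for a TATA box (13.6%). Capitals mark the matches. They are letters found in a window and were not tested as binding sites.

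The first sequence below is the upstream Hnf4a start (chr2:163506607-163506906, plus strand), with 1 ONECUT match that begins 59 bases before the start. The downstream Hnf4a window had no match. The second is Foxa3 (chr7:19023490-19023789, minus strand), with a TATA box at 36 bases before the start.
Hnf4a upstream start: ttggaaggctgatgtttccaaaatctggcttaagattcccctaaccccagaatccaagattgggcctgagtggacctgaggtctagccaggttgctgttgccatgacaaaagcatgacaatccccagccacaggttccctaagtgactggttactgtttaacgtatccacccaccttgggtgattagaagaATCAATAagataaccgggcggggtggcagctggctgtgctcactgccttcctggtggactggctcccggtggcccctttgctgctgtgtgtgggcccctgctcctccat
Foxa3 start: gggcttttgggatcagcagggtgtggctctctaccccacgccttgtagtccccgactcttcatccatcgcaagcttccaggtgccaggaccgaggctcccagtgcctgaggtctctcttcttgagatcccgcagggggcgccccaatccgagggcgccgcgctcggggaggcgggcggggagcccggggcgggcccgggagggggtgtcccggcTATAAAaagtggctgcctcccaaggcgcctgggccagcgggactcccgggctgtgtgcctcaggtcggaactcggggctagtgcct

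The third is the downstream of the Rxra starts (chr2:27709042-27709341, plus strand), with 2 nuclear receptor matches at 87 (opposite strand) and 48 bases before the start; the upstream Rxra window had no match. The fourth is Foxa1 (chr12:57546062-57546361, minus strand), with a FOXA match on the opposite strand at 141 bases before its start.
Rxra downstream start: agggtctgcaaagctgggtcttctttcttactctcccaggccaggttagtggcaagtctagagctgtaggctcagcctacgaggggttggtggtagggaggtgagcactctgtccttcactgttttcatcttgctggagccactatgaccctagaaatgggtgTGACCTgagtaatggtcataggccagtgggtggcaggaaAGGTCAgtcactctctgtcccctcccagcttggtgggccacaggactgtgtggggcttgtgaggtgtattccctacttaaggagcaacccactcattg
Foxa1 start: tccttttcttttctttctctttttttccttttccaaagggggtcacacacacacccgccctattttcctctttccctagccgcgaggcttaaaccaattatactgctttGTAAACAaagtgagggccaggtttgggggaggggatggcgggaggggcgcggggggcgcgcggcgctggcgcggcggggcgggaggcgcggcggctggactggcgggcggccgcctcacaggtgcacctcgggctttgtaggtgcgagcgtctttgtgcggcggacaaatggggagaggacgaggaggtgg

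Of the other members, Cebpa had a TATA box at 30 bases before its start. Among the 3 Foxa2 windows there were matches in 2, both on the opposite strand. These were the TATAAA letters at 208 bases before the start and, in the other window, an ONECUT match at 214 bases. No match was found in the windows of Nr1i2, Nr1i3 and Onecut1. The Foxa3 window and the upstream Rxra window were rich in G and C (69% and 83%, against a median of 52.7% over all windows), and the Nr1i2 window was not (45.3%).

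Hnf4a was lower on CDAHFD. In NC sham it measured 101.5, 101.5, 120.5, 117.2 and 116.7 FPKM, and in CDAHFD sham 79.2, 100.3, 72.9, 86.3 and 92.3. Every CDAHFD sham sample lay below every NC sham sample, the closest being 100.3 and 101.5. The ratio of means was 0.773 (log2 difference -0.37, 95% interval -0.60 to -0.14, adjusted p = 0.00528). The difference ranked at the 8.93rd percentile of all tested genes, so relative to the median gene Hnf4a was further down than its own fold shows. In RIC mice, NC RIC had 127.3, 118.3, 111.8, 105.8 and 93.2 FPKM and CDAHFD RIC 76.9, 84.7, 101.6 and 69.0, and here the groups overlapped through 1 CDAHFD RIC sample. That difference was -0.42 (adjusted p = 0.00356). It was no longer called when the samples were scaled to a common sum (-0.22, adjusted p = 0.118). RIC left a difference of -0.06 on CDAHFD (95% interval -0.30 to 0.19) and of -0.01 on chow (-0.24 to 0.22).

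The antisense transcript Hnf4aos changed far more than Hnf4a. It is annotated on the opposite strand (chromosome 2, 163493807 to 163541720) across the upstream Hnf4a start, and it begins 5435 bp before the downstream one. On chow, sham samples measured 1.81, 2.52, 3.28, 4.26 and 2.23 FPKM, while in CDAHFD sham it was listed at 0 in samples 1 and 3 and at 0.198, 0.323 and 0.248 in the others. NC RIC held 3.25 to 5.48 and CDAHFD RIC 0.152 to 0.570. Neither chow group overlapped a CDAHFD group. Diet differences were -1.70 in sham mice (adjusted p = 8.66e-09) and -2.04 in RIC mice (adjusted p = 2.58e-09), and the first was called under every alternative tried. Hnf4aos and Hnf4a share no exonic base. The sources used here do not say whether the libraries keep strand. Unspliced Hnf4a reads inside Hnf4aos exons cannot be told apart from antisense ones.

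Listed HNF4A targets were mostly lower on the diet. Of 16 tested in sham mice, 10 were called lower, 1 higher and 5 not, with a median of -0.77 against 0.45 over all genes. Over all genes 10.3% were called lower and 63.9% higher. The fall was not particular to this list. Hepatocyte markers were called lower there in 5 of 9 cases and higher in 0, and the C/EBP alpha and FOXA lists below went the same way. Some genes are on several of these lists, such as Alb on the last 3, so their counts are not independent. The urea cycle enzyme Otc fell from 123.8 ± 6.07 to 60.5 ± 6.65 FPKM (-1.03, adjusted p = 1.10e-07). RIC on CDAHFD moved the list both ways, with 5 called higher, 4 lower and 7 not, and a median of 0.09. Over all genes 8.72% were called higher and 18.6% lower in that comparison. The clotting factor subunit F13b rose by 0.84 (adjusted p = 0.00299), and Apoc3, an apolipoprotein of triglyceride-rich particles, fell by 0.58 (adjusted p = 0.00125). None of the 16 was called for RIC on chow, where the list's median was -0.10.

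Cebpa was not called in any of the 5 comparisons with FPKM as deposited. It is a gene of 1 exon on chromosome 7 (35119293 to 35121928, plus strand) and shares 51 exonic bp with the antisense gene Gm45091. On chow, sham samples had 72.2, 59.9, 82.4, 77.5 and 71.4 FPKM and RIC samples 91.2, 113.4, 102.3, 65.9 and 78.7. On CDAHFD, sham had 104.6, 79.0, 86.9, 73.2 and 77.7 and RIC 89.7, 75.7, 79.9 and 73.4. All 4 groups overlapped. The diet difference in sham mice was 0.21 (95% interval -0.07 to 0.48, adjusted p = 0.160) and turned to -0.37 under median-ratio scaling, which is a lower call (adjusted p = 0.0182). In RIC mice it was -0.16 (adjusted p = 0.318), called lower under median ratios (-0.72) and quantiles (-0.37). For RIC on chow it was 0.29 (0.02 to 0.57, adjusted p = 0.272), and for RIC on CDAHFD -0.07 (-0.36 to 0.22).

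Among leucine zipper factors of the same family, Ddit3 and Cebpd were called on diet in sham mice. The stress-induced Ddit3 (CHOP), which dimerizes with C/EBP proteins and keeps them from their usual sites, rose on CDAHFD from 3.27 ± 0.540 to 11.1 ± 1.35 FPKM in sham mice (1.501, adjusted p = 1.01e-08). It was 4.35 ± 1.41 in CDAHFD RIC, a fall of 1.21 (adjusted p = 2.94e-05). Cebpd, an acute-phase member, rose by 0.65 on diet (adjusted p = 0.00253), which median-ratio scaling reduced to 0.17 (adjusted p = 0.408). Cebpb had 54.2 ± 4.01 and 67.1 ± 16.8 FPKM (0.27, adjusted p = 0.109), and 0.39 without CDAHFD sham sample 5 (adjusted p = 0.0157) but -0.31 under median-ratio scaling. Cebpg (0.25, adjusted p = 0.1096) and Cebpe (-0.22, adjusted p = 0.342) were not called. The difference of Cebpg was near the 0.21 of Cebpa, and that of Cebpe was opposite in sign. Of all 8 tested paralogues of the set, 4 were called higher on diet in sham mice and none lower, against 63.9% and 10.3% of all genes, and for RIC on CDAHFD only Ddit3 was called. C/EBP alpha targets were mostly lower on diet, 7 of 10 against 1 higher, with F9 (clotting factor IX) at -1.08 (adjusted p = 2.80e-08). For RIC on CDAHFD, 4 of the 10 were called higher and 1 lower, against 8.72% and 18.6% of all genes. Gys2, the liver glycogen synthase, rose from 89.9 ± 12.3 to 205.7 ± 37.0 FPKM (1.178, adjusted p = 9.22e-05), and Cps1, the first enzyme of the urea cycle, rose by 0.78 (adjusted p = 0.00482).

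Among the FOXA genes, Foxa3 carried the largest difference that the set showed for RIC on CDAHFD. Foxa3 (chromosome 7, 19013284 to 19023538, minus strand) measured 28.7, 39.5, 26.9, 27.5 and 29.8 FPKM in CDAHFD sham and 14.7, 10.4, 19.1 and 12.6 in CDAHFD RIC. The lowest sham sample (26.9) stood well above the highest RIC sample (19.1). The ratio of means was 0.467 (log2 difference -1.07, 95% interval -1.5 to -0.63, adjusted p = 0.00151), at the 0.785th percentile of all tested genes. The call held under every alternative tried, from -1.21 to -0.94, and without CDAHFD sham sample 2, the highest, it was -0.97 (adjusted p = 0.00310). On chow no such difference was seen, with 18.6, 15.5, 27.2, 22.9 and 13.3 FPKM in sham and 23.2, 24.7, 21.2, 14.2 and 14.6 in RIC (0.01, 95% interval -0.40 to 0.42).

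The RIC effects on the 2 diets differed for Foxa3 by -1.08 (95% interval -1.68 to -0.48, adjusted p = 0.0303). That call held in 21 of 31 alternatives. It was lost, at adjusted p from 0.0504 to 0.0676, on leaving out any 1 of NC sham samples 2 and 5, NC RIC samples 1, 2 and 3, and CDAHFD RIC samples 2 and 4, with differences of -1.04 to -0.95. In sham mice Foxa3 was higher on CDAHFD by 0.65 (95% interval 0.24 to 1.06, adjusted p = 0.00586), with 1 NC sham sample (27.2) inside the CDAHFD range. That difference ranked at the 65.0th percentile of all tested genes. It was not called under median ratios (0.09) or quantiles. In RIC mice the diet difference was -0.43 (-0.87 to 0.003, adjusted p = 0.0705), and it was called under median ratios (-0.96) and quantiles (-0.87).

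Foxa1 and Foxa2 were lower in level. Foxa1 (chromosome 12, 57540628 to 57546916, minus strand) had 4.09, 4.96, 3.78, 3.72 and 3.49 FPKM in chow-fed sham mice and 3.51, 2.67, 3.66, 2.37 and 3.23 with RIC. On CDAHFD it had 7.36, 4.81, 6.61, 4.996 and 4.93 in sham and 4.31, 4.53, 5.18 and 3.39 in RIC mice. CDAHFD sham had the highest mean and NC RIC the lowest, with overlap between neighbouring groups. Foxa1 rose on diet in sham mice by 0.42 (adjusted p = 0.00535), which is close to the median of all genes (47.6th percentile) and is the difference that the scaling reverses. In RIC mice it rose by 0.39 (adjusted p = 0.0139), or by 0.32 without CDAHFD RIC sample 3 (adjusted p = 0.0556), and the scalings turned it to -0.05 and -0.13. For RIC on CDAHFD it was -0.33 (-0.60 to -0.05, adjusted p = 0.0720), with an adjusted p of 0.0462 when CDAHFD sham sample 2 was left out, and for RIC on chow -0.30 (adjusted p = 0.238).

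Foxa2 (chromosome 2, 148042877 to 148046969, minus strand) ranged more widely within groups. It had 3.27, 5.33, 6.49, 4.30 and 3.003 FPKM in chow-fed sham mice and 7.08, 6.92, 5.92, 2.19 and 3.08 with RIC. On CDAHFD it had 7.25, 5.84, 7.43, 5.51 and 4.87 in sham and 4.75, 5.77, 5.88 and 4.45 in RIC mice. All groups overlapped. None of its differences was called. The largest was diet in sham mice, 0.42 (-0.06 to 0.89, adjusted p = 0.108), which passed without NC sham sample 3 (0.54, adjusted p = 0.0466) and turned to -0.07 under median ratios and -0.10 under quantiles.

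Summed over the 3 genes, FOXA level on chow was 28.0 ± 6.63 FPKM in sham and 27.7 ± 7.32 in RIC mice, and on CDAHFD 42.4 ± 4.74 in sham and 23.8 ± 4.50 in RIC mice. Foxa3 made up 69.1% ± 5.67 and 71.0% ± 2.94 of it in the chow groups, in that order, 71.7% ± 5.66 in CDAHFD sham and 59.3% ± 6.02 in CDAHFD RIC. Most FOXA transcript in these livers was thus Foxa3, least so in CDAHFD RIC, and these sums carry no test. Listed FOXA targets were called lower on diet in sham mice in 5 of 7 cases and higher in 1, against 10.3% and 63.9% of all genes. The transaminase Tat was at -1.38 (adjusted p = 1.71e-05). The target called higher was Slc2a2, the hepatocyte glucose transporter GLUT2, at 0.70 (adjusted p = 1.83e-05, reduced to 0.13 by median-ratio scaling). For RIC on CDAHFD, 3 of the 7 were called higher and 1 lower, against 8.72% and 18.6% of all genes. Slc2a2 rose by 0.49 (adjusted p = 0.00726), and Ttr, the thyroid hormone carrier transthyretin, fell from 2785 ± 166.8 to 1905 ± 476.5 FPKM (-0.58, adjusted p = 0.00693).

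**Figure D4:**
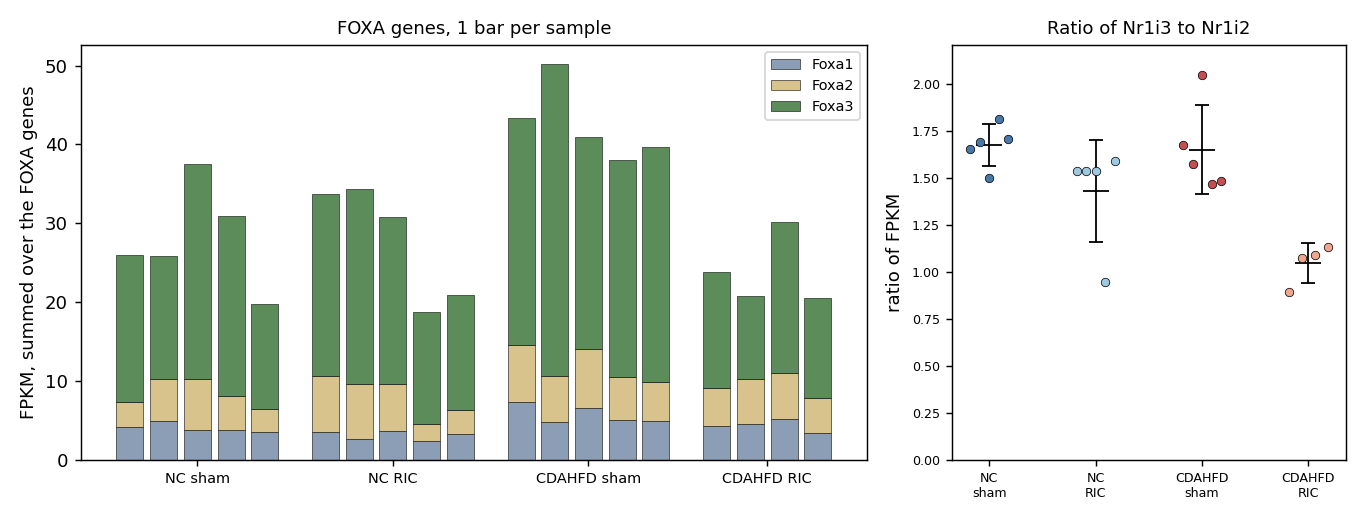
Left, FPKM of Foxa1, Foxa2 and Foxa3 stacked for each of the 19 samples, by group; right, the ratio of Nr1i3 to Nr1i2 FPKM in each sample with the mean and SD (n = 5, or 4 for CDAHFD RIC). The summed FOXA level is highest in CDAHFD sham (mean 42.4 FPKM), and Foxa3 makes up most of it in every group. The receptor ratio is lowest in CDAHFD RIC (mean 1.05).

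Rxra rose with RIC on CDAHFD. The gene (chromosome 2, 27676440 to 27762957, plus strand) measured 22.6, 27.9, 21.9, 22.9 and 27.2 FPKM in CDAHFD sham and 37.3, 36.2, 32.3 and 35.0 in CDAHFD RIC. All 4 RIC values lay above all 5 sham values, and also above every value on chow. The ratio of means was 1.44 (log2 difference 0.51, 95% interval 0.29 to 0.73, adjusted p = 0.00208), at the 95.2nd percentile of tested genes, and the call held under every alternative tried (0.47 to 0.63). On chow, sham had 21.9, 20.4, 19.8, 27.4 and 21.8 FPKM and RIC 27.4, 26.7, 24.4, 21.0 and 26.4 (0.17, -0.03 to 0.38, adjusted p = 0.392). The effects of RIC on the 2 diets differed by 0.34 (0.04 to 0.63), which was not called (adjusted p = 0.156). Diet in RIC mice gave 0.47 (adjusted p = 5.28e-04), close to the median of all genes, and -0.08 under median-ratio scaling.

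The other RXR genes were far lower. Rxrb had 3.30 ± 0.573 FPKM in CDAHFD sham and 3.72 ± 0.496 in CDAHFD RIC (0.14, adjusted p = 0.352). Rxrg rose on diet in sham mice from 0.835 ± 0.212 to 2.17 ± 0.258 (0.79, adjusted p = 1.87e-05; adjusted p = 0.0882 under quantiles). On chow Rxra made up 84.5% ± 1.71 of the summed RXR level in sham and 86.2% ± 2.25 in RIC mice, and on CDAHFD 81.7% ± 1.10 and 86.9% ± 0.551. The sum itself was 30.0 ± 3.39 FPKM in CDAHFD sham and 40.5 ± 2.64 in CDAHFD RIC.

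Partners with which RXR alpha binds DNA moved in both directions. On diet in sham mice all 9 tested were called, 6 higher and 3 lower, where 63.9% of all genes were higher and 10.3% lower. Ppara, the fatty acid receptor that drives hepatic fat oxidation, fell from 17.0 ± 2.98 to 7.35 ± 2.53 FPKM (-1.14, adjusted p = 4.22e-05), and the bile acid receptor Nr1h4 (FXR) fell by 0.39 (adjusted p = 0.00178). Pparg, the lipid-storage relative of Ppara, rose from 1.41 ± 0.268 to 8.55 ± 1.82 (1.97, adjusted p = 7.86e-11). With RIC on CDAHFD 1 of the 9 was called higher and 3 lower, against 8.72% and 18.6% of all genes. The one raised was Ppara, at 20.7 ± 5.90 FPKM in CDAHFD RIC (1.38, adjusted p = 2.66e-04), and the retinoic acid receptor Rara was among those lowered (-0.43, adjusted p = 0.0163; adjusted p = 0.0568 under median-ratio scaling). Of 12 tested coregulators, 3 were called higher and 2 lower with RIC on CDAHFD. Ppargc1a, the PGC-1 alpha coactivator of fasting metabolism, rose from 2.69 ± 0.634 to 7.09 ± 2.52 FPKM (1.09, adjusted p = 0.00173). Nrip1, a nuclear receptor corepressor, rose by 0.53 (adjusted p = 0.0123; adjusted p = 0.0889 with a pseudocount of 0.1).

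Nr1i2, which encodes PXR, had a narrow range. Its values (chromosome 16, 38248323 to 38294824, minus strand) were 44.0, 44.8, 47.1, 39.2 and 43.7 FPKM in chow-fed sham mice and 38.8, 37.1, 40.9, 44.8 and 29.0 with RIC. On CDAHFD they were 36.02, 30.8, 36.9, 46.0 and 45.2 in sham and 44.9, 48.5, 47.2 and 49.3 in RIC mice. CDAHFD RIC held the highest values and overlapped both sham groups. Against NC RIC, CDAHFD RIC was higher by 0.32 (adjusted p = 0.0217) with no overlap, but this was lost without NC RIC sample 5 (0.23, adjusted p = 0.0688) or without CDAHFD RIC sample 4 (0.30, adjusted p = 0.0509), and it turned to -0.23 under median-ratio scaling. Diet in sham mice gave -0.18 (adjusted p = 0.163), which the scalings made a lower call (-0.75 and -0.49). RIC on CDAHFD gave 0.29 (0.04 to 0.54, adjusted p = 0.0742). That difference passed without any 1 of NC RIC sample 5 and CDAHFD sham samples 4 and 5 (adjusted p from 0.0408 to 0.0457), and under both scalings (0.39 and 0.40). On chow RIC gave -0.21 (-0.44 to 0.03). The difference between the RIC effects was 0.50 (0.16 to 0.84, adjusted p = 0.0718).

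Nr1i3, which encodes CAR, was lower with RIC on both diets without being called on either. NC sham had 72.8, 75.8, 70.7, 71.0 and 74.5 FPKM, and NC RIC 59.7, 56.9, 62.8, 42.3 and 46.0, so that every RIC sample lay below every sham sample. That difference was -0.45 (95% interval -0.71 to -0.20), at the 2.84th percentile of tested genes, with an adjusted p of 0.0758. CDAHFD sham had 60.3, 48.5, 75.4, 67.5 and 67.1, and CDAHFD RIC 40.1, 52.0, 51.5 and 55.9, where sham sample 2 fell inside the RIC range. The difference was -0.34 (-0.62 to -0.07, adjusted p = 0.0561), and without that sample -0.44 (adjusted p = 0.0122). It also passed without NC RIC sample 4 (adjusted p = 0.0424) and without CDAHFD RIC sample 4 (-0.40, adjusted p = 0.0444). The chow difference passed without CDAHFD sham sample 2 (adjusted p = 0.0497), which enters it only through the shared spread. The summed hepatocyte markers were 56160 to 66790 FPKM in NC RIC, above every NC sham sample, and endothelial markers 3.96 to 12.2. Marker by marker, only Alb of the 9 hepatocyte genes was called higher for RIC on chow (0.50, adjusted p = 0.04955). The other 8 were not called, and the median of the hepatocyte list was -0.09. The part of these marker levels in the chow differences of RIC was not tested. Diet in sham mice gave -0.21 for Nr1i3 (adjusted p = 0.135), called lower under median ratios (-0.78) and quantiles (-0.41), and the same scalings called diet in RIC mice lower (-0.65 and -0.38 against -0.10). Nr1i3 (chromosome 1, 171213970 to 171220701, plus strand) shares 3304 of its 4414 exonic bp, or 74.9%, with Tomm40l on the opposite strand. Reads in the shared exons cannot be assigned to either gene with certainty, since strand is not known. Tomm40l ranged from 1.63 to 5.42 FPKM in the 19 samples, well under Nr1i3. For RIC on chow its difference was -0.50 (adjusted p = 0.0964), like that of Nr1i3, and both genes were lowest in NC RIC sample 4 there. For RIC on CDAHFD it was 0.23 (adjusted p = 0.269), opposite in sign to Nr1i3.

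The ratio of Nr1i3 to Nr1i2 was 1.67 ± 0.113 in sham and 1.43 ± 0.271 in RIC mice on chow, and 1.65 ± 0.236 and 1.05 ± 0.106 on CDAHFD. The CDAHFD RIC samples (0.893 to 1.13) lay below all CDAHFD sham samples (1.47 to 2.04). In NC RIC 4 samples lay close together and sample 4 stood low at 0.945. This ratio carries no test.

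Listed PXR targets were called higher more often than lower with RIC on CDAHFD, 8 of 14 against 1. Over all genes 8.72% were called higher and 18.6% lower. The median of the list was 0.44 against -0.08 over all genes. This was not particular to PXR targets, since the FOXA, C/EBP alpha and CAR lists had medians of 0.47, 0.34 and 0.33. Those of the HNF4A and ONECUT1 lists were 0.09 and -0.20. The cytochrome Cyp3a13 rose from 40.9 ± 5.54 to 82.1 ± 15.3 FPKM (0.98, adjusted p = 3.09e-05), and Cyp3a25 from 222.1 ± 26.6 to 381.1 ± 42.0 (0.78, adjusted p = 9.77e-04). Abcc2, a canalicular export pump on both the PXR and the CAR list, rose by 0.59 (adjusted p = 5.35e-04), and Por, which passes electrons to all microsomal cytochromes, by 0.81 (adjusted p = 0.00228). Cyp3a11, the target most used to read PXR activity in mice, had 1091 ± 176.7 and 1357 ± 33.2 FPKM (0.33, adjusted p = 0.243). CAR targets were called higher in 4 of 13 cases and lower in 1. Cyp2b10, the usual CAR reporter, was too low to test, at 0.0822 to 0.362 FPKM in sham and 0.918 to 1.38 in RIC mice on chow, and 0.118 to 0.630 and 0 to 0.665 on CDAHFD. Its NC RIC samples lay above all others. Reads of Cyp3a and Cyp2 genes with close relatives may be split among them.

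On diet in sham mice both lists were divided. PXR targets were called higher in 5 of 14 cases and lower in 3, and CAR targets higher in 7 of 13 and lower in 2. Both counts of higher calls lie under the 63.9% of all genes, of which 10.3% were called lower. Cyp3a13 fell by 1.52 (adjusted p = 5.89e-10) and Cyp2c29 from 181.5 ± 40.5 to 45.7 ± 22.2 FPKM (-2.10, adjusted p = 1.36e-06), while the export pump Abcc4 rose from 0.186 ± 0.0645 to 2.86 ± 0.458 (1.70, adjusted p = 3.09e-10).

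Onecut1 had the widest spread and the lowest mean in every group but NC RIC, where Foxa1 was lower. Its values (chromosome 9, 74861921 to 74891781, plus strand) were 0.734, 0.589, 1.05, 0.766 and 3.87 FPKM in NC sham and 1.97, 4.60, 2.68, 4.09 and 11.4 in NC RIC. Sample 5 was the highest in each of these groups, and NC sham sample 5 fell inside the NC RIC range. The ratio of means was 3.53 (log2 difference 1.26, 95% interval 0.58 to 1.95, adjusted p = 0.0652), at the 99.9th percentile of all tested genes. It passed without NC sham sample 5 (1.55, adjusted p = 0.0332) and without NC RIC sample 1 (1.47, adjusted p = 0.0421), and with sample 5 left out of both groups it was 1.24 (adjusted p = 0.0279). Leaving out NC RIC sample 5 alone gave 0.95 (adjusted p = 0.109). On CDAHFD, sham had 1.17, 2.27, 1.89, 0.949 and 1.91 FPKM and RIC 3.55, 2.69, 2.17 and 1.81, which overlapped (0.43, -0.29 to 1.16, adjusted p = 0.369). Diet gave 0.25 in sham mice (-0.43 to 0.94) and -0.58 in RIC mice (-1.30 to 0.15), neither called. The scalings turned the first to -0.07 and -0.29, and under them the second was called lower (-1 and -1.09). Onecut1 shares 2171 exonic bp with Gm20649 on the same strand, which was near 0 in all samples.

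Of 9 listed ONECUT1 targets, 1 was called lower and none higher for RIC on chow, against 0.86% and 0.321% of all genes. It was Pfkfb1, the liver enzyme that sets fructose-2,6-bisphosphate, which fell from 17.6 ± 3.62 to 11.1 ± 0.914 FPKM (-0.60, adjusted p = 0.0310). The call was lost without any 1 of NC sham samples 1, 2, 3 and 5 and NC RIC samples 2 and 3 (-0.64 to -0.52, adjusted p from 0.0528 to 0.0934). It was also lost under median ratios (adjusted p = 0.0530), quantiles (0.0707), a fit of the chow groups alone (0.0661), no filter on low values (0.0733) and without sample 5 of both chow groups (0.0705). For RIC on CDAHFD, 1 of the 9 was called higher and 2 lower, against 8.72% and 18.6% of all genes. Hnf4a and Foxa2 themselves are on this list. On diet in sham mice 2 of the 9 were called higher and 4 lower, against 63.9% and 10.3% of all genes. In the other target lists, RIC on chow gave higher calls for 2 of 10 C/EBP alpha targets (Alb and Hamp) and 1 of 7 FOXA targets (Alb again). It gave 1 of 14 for PXR targets (Gsta1) and none for CAR targets, against 0.321% of all genes. Alb and Hamp each had an adjusted p of 0.04955, just under the threshold. Because Alb is on 2 of these lists, their counts are not independent.

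Of 20 listed factors that work beside the set in liver, 9 were called higher and 4 lower on diet in sham mice, against 63.9% and 10.3% of all genes. For RIC on CDAHFD 3 were called higher and 6 lower, against 8.72% and 18.6%. Rora, an orphan receptor of lipid metabolism, fell on diet from 9.19 ± 0.706 to 3.70 ± 0.601 FPKM (-1.12, adjusted p = 1.10e-07) and rose with RIC on CDAHFD to 7.46 ± 1.04 (0.85, adjusted p = 2.17e-04). Hhex, a homeobox factor of early liver development, rose on diet from 4.73 ± 1.59 to 19.7 ± 1.79 (1.91, adjusted p = 9.06e-07) and fell with RIC on CDAHFD to 7.94 ± 0.944 (-1.21, adjusted p = 0.00265). Tbx3, which acts in hepatoblast growth, fell with RIC on CDAHFD from 4.58 ± 0.8287 to 1.95 ± 0.0843 (-0.91, adjusted p = 1.86e-04). All 6 tested fetal and biliary genes were called higher on diet in sham mice, with Cd24a at 2.63 (adjusted p = 5.40e-09) and Sox9, a biliary and progenitor factor, at 0.83 (adjusted p = 2.37e-04; adjusted p = 0.143 under quantiles). In RIC on CDAHFD, 1 of these 6 was called lower. Stellate cell markers were called lower there in 4 of 7 cases, with summed levels of 54.1 to 140.1 FPKM in CDAHFD sham and 38.9 to 75.4 in CDAHFD RIC, macrophage markers higher in 1 of 8 cases, and endothelial and cholangiocyte markers in none of 6 and 3. Hepatocyte markers were called higher in 3 of 9 cases and lower in 3, with sums of 32850 to 39100 and 33300 to 45490. The part of these marker differences in the Foxa3 and Rxra results was not tested.

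The 9 genes did not share 1 pattern over the samples. Likeness was measured as the root mean square difference between centred log2(FPKM + 1) values of 2 genes over the 19 samples, where smaller is more alike. Between members it ran from 0.308 for Cebpa and Foxa2 to 0.980 for Foxa3 and Onecut1. Of the 9, Rxra had the nearest neighbours, Kat2b (0.103), a histone acetyltransferase, and Sec22c (0.112). Those of Foxa3 were Ahr (0.295), the aryl hydrocarbon receptor, and Nags (0.306), which makes the activator of Cps1. Hnf4a was closest to Rnf139 (0.142) and Zfp617 (0.155), Nr1i2 to Foxo1 (0.159) and Pccb (0.160), and Nr1i3 to Creld1 (0.162) and Phf1 (0.170). For Cebpa they were Zfand2b (0.154) and Pigyl (0.172), for Foxa1 Keap1 (0.1297) and Mcts2 (0.143), and for Foxa2 Irf2bpl (0.230) and Bcat2 (0.252). Onecut1 had no close neighbour, the nearest being Enpep (0.568) and Lncbate1 (0.568). The measure is smaller for genes of small spread, and all values come from the same libraries.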

How the data were processed

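Liver RNA libraries were made with a VAHTS kit from Trizol-extracted RNA, per the labels' protocols. The authors deposited FPKM in 1 file with 1 column per sample. Per the submitters' processing notes, which state no roles, the genome was mm10 and the tools were HISAT2 2.2.1 and HTSeq 0.13.5, beside Trimmomatic 0.38, FastQC 0.11.9, R 3.4.1 and DESeq2 1.18.1. The step that made the FPKM is not given in the sources used here.

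Samples were grouped by title. The 3225 entries without a gene name (0.123% to 0.204% of FPKM) were left out. The 10577 genes whose mean FPKM reached 1 were tested on log2(FPKM + 1), a pseudocount of 1, which understates changes of low genes, with limma 3.58.1 in R 4.3.3 (eBayes with trend, 4 group means over 19 samples, 15 residual degrees of freedom, two-sided, Benjamini-Hochberg over all genes tested; threshold 0.05). Depth was estimated from the commonest low value. Of low values 20.3% to 25.1% lay within 0.02 reads of a whole number, where evenly spread values would give 4%, so whole reads could not be recovered and no count model was run. No pair of samples shared over 0.00945% of values. The fit was tested on simulated data.

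The members, gene lists and tests were chosen with earlier results of these data known. The naming rule gave the 9 members, up to 3 genes of smallest p per list and comparison, a fixed set, overlapping genes and the 2 most alike genes per member, leaving out predicted genes. The subset of these that is named was picked after their values were seen. A few listed genes are not reported here by name. Promoter sequences are RefSeq's (all 9 members matched, 13 windows). Alternatives changed the pseudocount, filter, scaling, samples and model. Tables were handled with data.table in version 1.17.8, python 3.11.15, numpy 2.4.6 and pandas 2.3.3, and plots drawn with matplotlib 3.10.9.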

Additional observations from a re-analysis of the deposited data

Results flagged for a closer look

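In 4 of the 36 combinations of a member and a group, 1 sample lay far from the others by Dixon's gap test, where chance alone marks about 1 group in 20. Onecut1 was 3.87 FPKM in NC sham sample 5 against 0.589 to 1.05 in the other samples of that group, and 11.4 FPKM in NC RIC sample 5 against 1.97 to 4.60. Foxa3 was 39.5 FPKM in CDAHFD sham sample 2 against 26.9 to 29.8, and its difference for RIC on CDAHFD without that sample was -0.97. Rxra was 27.4 FPKM in NC sham sample 4 against 19.8 to 21.9, a group that does not enter the Rxra comparison of RIC with sham on CDAHFD except through the shared spread.

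For Foxa3 the effect of RIC was called different between the diets with FPKM as deposited (adjusted p = 0.0303). That call held in 21 of 31 alternatives, and the highest adjusted p among them was 0.0770. The difference between the effects was -1.08 on the log2(FPKM + 1) scale, from -1.07 on CDAHFD and 0.01 on chow.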

How the results depend on the processing

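Hnf4a (diet in sham mice), Foxa3 and Rxra (RIC on CDAHFD) kept their direction and call under all 32 alternatives. Median-ratio and quantile scaling changed the diet results: members called higher in sham mice went from 2 to 0 under both, and those called lower from 1 (Hnf4a) to 5 and 4, adding Nr1i2, Nr1i3, Rxra and, under median ratios, Cebpa. In RIC mice 3 higher became 0 under both and 1 lower became 5, adding Cebpa, Foxa3, Nr1i3 and Onecut1. With a call under 1 of the settings at least, signs turned in sham mice under median ratios for Cebpa (-0.37), Foxa1 (-0.064), Rxra (-0.43), Rxrb (-0.41) and Ttr (-0.48), and under quantiles for Foxa1 (-0.11), Rxra (-0.26) and Rxrb (-0.51). In RIC mice they turned under median ratios for Foxa1 (-0.052), Nr1i2 (-0.23) and Rxra (-0.076), and under quantiles for Foxa1 (-0.13). Without a call on either side, signs of members also turned under median ratios and quantiles in sham mice for Foxa2 (-0.07 and -0.10) and Onecut1 (-0.07 and -0.29), and in RIC mice for Foxa2 (-0.33 and -0.37) and, with a common sum, for Cebpa (0.05) and Nr1i3 (0.11). For RIC on either diet and the difference between RIC effects, the signs that turned were of uncalled differences. A mean of at least 5 FPKM left 1 higher call in sham mice, since Foxa1 was then not tested.

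A common sum gave 2 higher calls for RIC on CDAHFD, as did both scalings, and for diet in RIC mice 0 lower calls. It also gave 1 higher and 0 lower calls for the difference between RIC effects, as did leaving out CDAHFD sham samples 2 and 5, which gave 3 lower calls for RIC on CDAHFD. Without a filter that difference had 0 lower calls. For RIC on chow, 1 higher call (Onecut1) appeared with a pseudocount of 0.1 or 0.01, median ratios, array weights or, chosen after seeing the data, without sample 5 of both chow groups. Array weights gave 1 lower call there, 2 lower for RIC on CDAHFD and 2 lower for diet in RIC mice, and the pair of samples 5 left out gave 2 lower in the last. The cause of these moves was not tested.

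Leaving out 1 sample at a time gave 2 or 3 higher calls and 1 lower for diet in sham mice, 1 to 2 higher and 1 to 3 lower for RIC on CDAHFD, 0 to 1 in each direction for RIC on chow, 2 to 3 higher and 1 to 2 lower for diet in RIC mice, and 0 to 1 in each direction for the difference between RIC effects.

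Correlations of same-numbered samples of different groups ran from -0.174 to 0.176. They were not set against differently numbered samples, so whether replicate numbers pair the samples was not tested. A replicate block gave 3 higher calls for diet in sham mice, 2 lower for RIC on CDAHFD, 1 higher for RIC on chow and 2 lower for diet in RIC mice. Depth limits the low genes most, Onecut1 above all.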
